A study of Danio rerio with 4 samples.

Results

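The genes described are 13 cell adhesion and junction genes, taken from the 756 genes of the deposited differential expression table by the family name in their symbol (integrins, cadherins, protocadherins, claudins, occludins, connexins, plakophilins, nectins, leucine-rich repeat genes and related families). The pattern found 15 symbols, and *itga11b* and *cldn11a* were left out by the rule. By an assigned role, 7 members were classed as mesenchymal (*itga8*, *itga9*, *itga11a*, *itgb1a*, *itgb5*, *cdh11* and *lrrc17*). A further 4 were classed as epithelial (*cldne*, *oclnb*, *pkp1b* and *pkp3b*). The other 2 are *itga4*, classed with blood and endothelial genes, and the lens connexin gene *gja8b*. The mesenchymal class takes in integrin subunits as matrix receptors and the gene of a secreted protein, *lrrc17*. The label does not mean that a member is confined to mesenchyme.

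Cells were sorted by FACS from dissected heads of 48 hpf zebrafish larvae that carried both the *TgBAC(apln:Venus-PEST)* and the *Tg(kdrl:Hsa.HRAS-mCherry)* transgene in an otherwise wildtype background. Venus-PEST, a short-lived fluorophore, is driven by *apln* regulatory sequence in a bacterial artificial chromosome, and mCherry by the endothelial *kdrl* promoter. The groups were Venus positive, mCherry negative cells (2 libraries) and cells negative for both (2 libraries), and the labels call the cell type of both groups mixed. Smart-seq2, which amplifies full-length cDNA from little RNA and carries no molecular identifiers, was used for bulk RNA sequencing. Whether the libraries of a group stem from different clutches or sorts is not stated, and the p-values below therefore cover the spread among these 4 libraries only.

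Epithelial cells are held together by tight junctions, in which claudins and occludin seal the space between neighbours, and by desmosomes, in which plakophilins link desmosomal cadherins to the keratin network. Mesenchymal cells such as fibroblasts contact each other more loosely, through cadherins such as *cdh11*, and hold on to the matrix around them through integrins, which are pairs of an alpha and a beta subunit. Fibroblasts of the meninges lie on a collagen and laminin rich surface of the brain.

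Every gene of the table has a Q value under 0.05 in the authors' own comparison of these libraries (756 of 756), so each member had already passed a test of the same difference. The listed genes hold 876579 to 1175560 reads per library, and total library depth was not known here. By edgeR's quasi-likelihood test, adjusted with Benjamini-Hochberg over the 754 listed genes that passed a minimum of 10 counts in 2 or more libraries, 100% of the genes were called, 64.2% as higher and 35.8% as lower in Venus positive cells. The libraries of the groups did not overlap for 756 of the 756 genes (100%), so calls and separation of the members follow from how the table was made, and only direction, size and level are read as results. Where separation or an adjusted p is given for a gene below, it describes the values and adds no support. With 2 libraries a side, exact permutation gives no p under 0.333. *apln*, the gene behind the sort, had 651 and 802 normalized read counts (reads divided by a size factor of the library) in double negative cells and 11006 and 8899 in Venus positive cells.

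The mesenchymal and the epithelial members went in opposite directions, with *pkp3b* as the exception. The classes were assigned with earlier results of these data known, so this split is no independent support for them. All 7 mesenchymal members were higher in Venus positive cells, with log2 fold changes from 1.69 to 3.89 and a median of 2.63, although *cdh11*, *itgb1a* and *lrrc17* turned with a scaling given below. Of the 4 epithelial members 3 were lower and *pkp3b* was higher (it turned with the same scaling), with log2 fold changes from -4.15 to 1.73 and a median of -2.64. The median over all listed genes tested was 1.85. In all, 9 members were higher and 4 lower, shares of 69.2% and 30.8% that lie near those of the whole table. For the read counts, these directions rest on the authors' size factors. Scaling over the listed genes alone (the RLE method) moves the median of the table by -1.87, and under it *cdh11*, *itgb1a*, *lrrc17* and *pkp3b*, whose changes were close to that median, came out slightly lower, between -0.20 and -0.0517. With TMM scaling over the listed genes, which moves the median by -1.77, *cdh11*, *itgb1a* and *pkp3b* turned. The authors' TPM, a level corrected for transcript length, uses no such size factor. It is set relative to the total of each library, so it too depends on the other abundant genes and cannot settle these directions. Its mean in Venus positive cells was 3.35-fold that of double negative cells for *cdh11* and 3.65-fold for *itgb1a*. For *lrrc17* it was 3.71-fold and for *pkp3b* 3.68-fold. When the listed genes were counted as part of the 23016 genes behind the authors' adjustment, 55.4% of the table passed, 29.7% as higher and 25.7% as lower, and 6 of the 13 members did, with *itga8*, *itga9*, *itga11a* and *itgb5* higher and *cldne* and *gja8b* lower. In bulk samples, fewer cells of a type and less RNA per cell cannot be told apart.

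**Figure D1:**
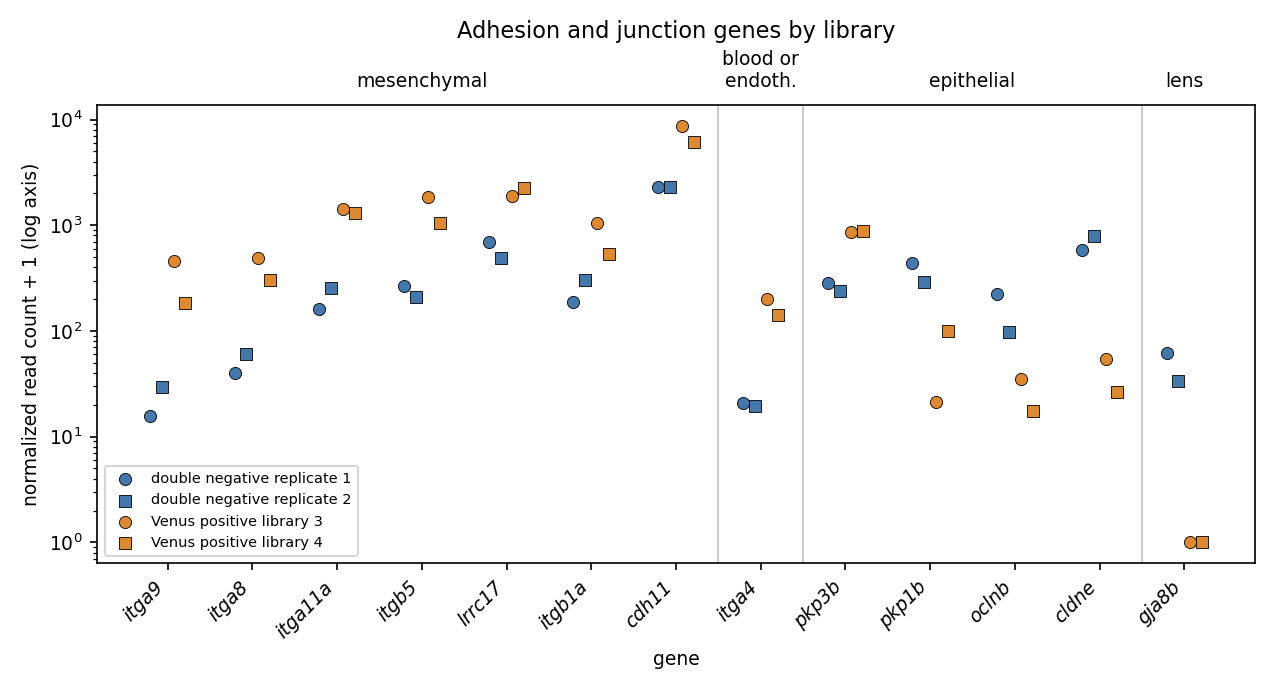
Normalized read count plus 1 (log axis) of each of the 13 genes in each library, as 1 point per library, with the genes ordered by class and, within a class, by fold change. The Venus positive points (orange) lie above the double negative points (blue) for the 7 mesenchymal members, *itga4* and *pkp3b* and below them for the rest, and *gja8b* was at 0 in both Venus positive libraries. With RLE scaling over the listed genes *cdh11*, *itgb1a*, *lrrc17* and *pkp3b* change sign.

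Integrin alpha subunits showed the largest increases among the members. *itga9* (NCBI gene 394012), which pairs with the beta-1 subunit in a receptor for tenascin and Vcam1 in mammals, had 14.8 and 28.6 normalized read counts in double negative cells. In the Venus positive libraries 3 and 4 it had 460.0 and 182. Both Venus positive libraries were far above both double negative libraries, but they differed 2.52-fold from each other. Its mean rose 14.8-fold, a log2 fold change of 3.89 (standard error 0.82, adjusted p = 5.7e-04, edgeR), and without Venus positive library 3 the log2 fold change was 3.07. *itga8* (100141346), an alpha subunit of mesenchyme and smooth muscle that binds fibronectin and nephronectin in mammals, had 39.44 and 59.3 normalized read counts in double negative cells and 493 and 300.2 in Venus positive cells. The groups did not overlap, and Venus positive library 3 was again the higher of its pair. The log2 fold change of *itga8* was 3.00 (standard error 0.70, adjusted p = 0.00109, edgeR), from a mean of 49.4 ± 14.0 to 396 ± 136 (SD, n = 2). It was 1.12 (adjusted p = 0.183) with RLE and 1.24 (adjusted p = 0.138) with TMM scaling over the listed genes in edgeR, and over all alternatives the adjusted p ran from 1.1e-05 to 0.183.

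*itga11a* (541475), an alpha subunit of the fibroblast collagen receptor in mammals, had 160.2 and 256 normalized read counts in double negative cells and 1435 and 1302 in Venus positive cells. The Venus positive libraries differed 1.102-fold, less than for any other integrin member. *itga11a* rose by 2.72 on the log2 scale (standard error 0.51, adjusted p = 2.7e-04, edgeR), a 6.58-fold difference of the means. With RLE scaling it came to 0.88 (adjusted p = 0.163) and with TMM to 0.98 (adjusted p = 0.108) in edgeR, and over all alternatives the adjusted p ran from 5.7e-07 to 0.163. *itga4* (100331333), which with beta-1 binds Vcam1 and fibronectin and is best known from leukocytes, had 19.7 and 18.4 normalized read counts in double negative cells and 199 and 141 in Venus positive cells. It was low in both double negative libraries, at 24 and 18 reads, and the groups did not overlap. Its log2 fold change was 3.14 (standard error 0.82, adjusted p = 0.00218, edgeR), an 8.90-fold difference. Adjusted over 23016 genes its p was 0.0667, with RLE and TMM scaling the log2 fold change was 1.25 and 1.35 (adjusted p = 0.245 and 0.197, edgeR), and over the alternatives tried the adjusted p ran from 2.5e-04 to 0.245.

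The beta subunits rose as well, although *itgb1a* turned to -0.184 with RLE scaling. *itgb1a* (556734), the partner of all 4 alpha subunits above, had 185 and 303 normalized read counts in double negative cells and 1058 and 535 in Venus positive cells. The groups did not overlap, but the Venus positive libraries differed 1.98-fold and the double negative libraries 1.64-fold. Its log2 fold change of 1.71 (standard error 0.55, adjusted p = 0.00658, edgeR) had the largest adjusted p among the mesenchymal members, and this p was 0.0690 without double negative replicate 1, 0.0890 without Venus positive library 3 and 0.201 over 23016 genes, and it ran from 0.00139 to 0.946 over all alternatives tried. *itgb5* (563556), which pairs with the alpha-V subunit in a vitronectin receptor, had 263 and 207 normalized read counts in double negative cells and 1850.2 and 1057 in Venus positive cells. Both Venus positive libraries stood above both double negative libraries, and the log2 fold change was 2.63 (standard error 0.51, adjusted p = 3.4e-04, edgeR), a 6.19-fold difference. For *itgb5* RLE scaling gave 0.70 (adjusted p = 0.284) and TMM scaling 0.80 (adjusted p = 0.206) in edgeR, and over all alternatives the adjusted p ran from 2.4e-06 to 0.284.

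TPM values, which are corrected for transcript length, allow the subunits to be compared with each other. They are given for each double negative library and, for Venus positive cells, as the mean of the group that the authors deposited, without an SD. Summed over *itga4*, *itga8*, *itga9* and *itga11a*, the alpha subunits had 5.57 and 6.32 TPM in double negative cells and 52.9 TPM in Venus positive cells. *itgb1a* had 3.59 and 4.48 TPM against 14.7 TPM. The alpha subunits thus had 1.55 and 1.41 TPM per TPM of *itgb1a* in double negative cells and 3.59 in Venus positive cells. Other beta-1 genes were not analysed here, so this ratio is not that of all alpha to all beta-1 subunits.

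*itga11a* was the most abundant of the 4 alpha subunits in both groups, with 70.0% and 73.6% of their TPM in double negative cells and 62.4% in Venus positive cells. *itga8* held a similar share throughout, 14.7% and 14.9% in double negative cells and 15.0% in Venus positive cells. The share of *itga9* was 5.57% and 5.22% in double negative cells and 11.8% in Venus positive cells, and that of *itga4* 9.69% and 6.33% against 10.8%. Per library, the reads of *itga9* for each read of *itgb1a* numbered 0.0800 and 0.0946 in double negative cells and 0.435 and 0.340 in Venus positive cells, a ratio that does not depend on the scaling. The Venus positive libraries were above both double negative libraries in this ratio, as they were for *itga8* (0.213 and 0.196 against 0.466 and 0.561), *itga4* (0.107 and 0.0608 against 0.188 and 0.263) and *itga11a* (0.867 and 0.845 against 1.36 and 2.43).

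**Figure D2:**
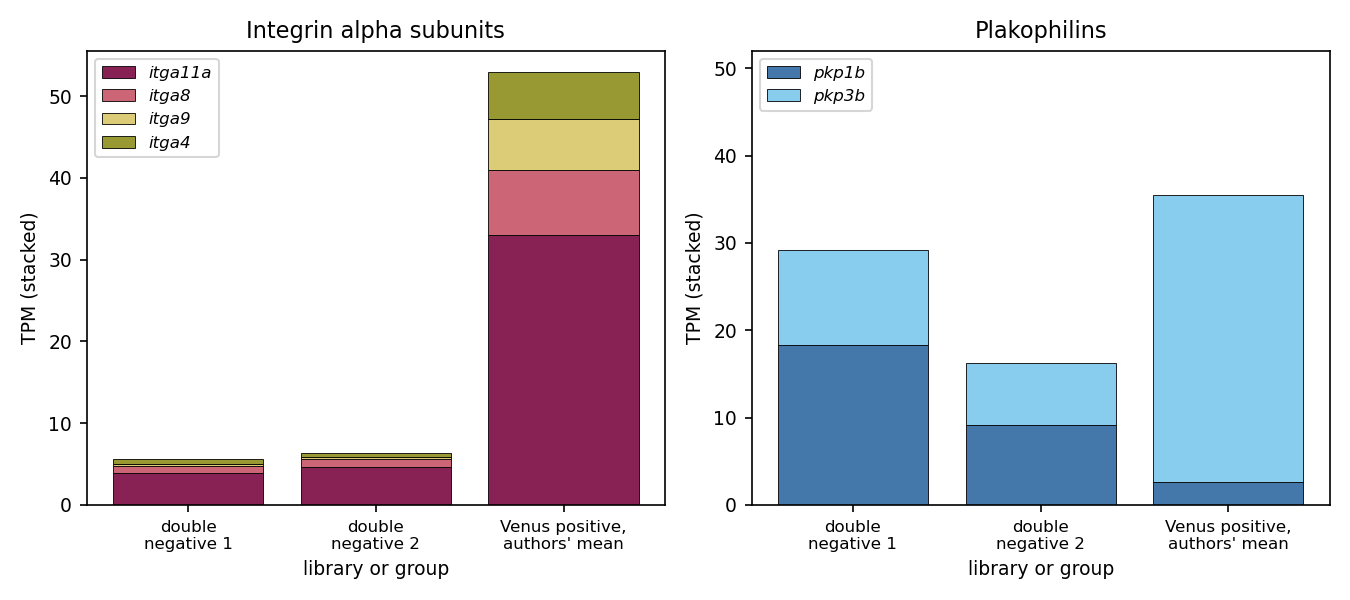
Stacked TPM of the 4 integrin alpha subunits (left) and of the 2 plakophilins (right), with 1 bar for each double negative library and 1 for the authors' mean of the Venus positive libraries, which has no error bar. The alpha subunits sum to 5.57 and 6.32 TPM in double negative cells and to 52.9 TPM in Venus positive cells, and *pkp1b* makes up most of the plakophilin bar in double negative cells and little of it in Venus positive cells. The direction of *pkp3b* turns under RLE scaling.

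*cdh11* (30461), a cadherin through which mesenchymal cells and osteoblasts contact each other in mammals, was the most abundant member per length in both groups. It had 2300.4 and 2298 normalized read counts in double negative cells and 8737 and 6153 in Venus positive cells. The double negative libraries were alike and both Venus positive libraries were above them. *cdh11* was 3.24-fold higher (but came to -0.20 on the log2 scale with RLE scaling), with a log2 fold change of 1.69 (standard error 0.45, adjusted p = 0.00232, edgeR; 0.0708 over 23016 genes). Its TPM was 75.1 and 51.1 in double negative cells and 211 in Venus positive cells, above that of 88.1% of the listed genes in the former and 91.3% in the latter. *cdh11* alone made up 53.6% and 56.1% of the summed TPM of the mesenchymal members in double negative cells and 46.5% in Venus positive cells.

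*lrrc17* (321202) encodes a secreted leucine-rich repeat protein that acts in bone in mammals and is no junction protein. It had 693 and 487 normalized read counts in double negative cells and 1911 and 2253 in Venus positive cells. The groups did not overlap, as for every listed gene. The log2 fold change was 1.82 (standard error 0.46, adjusted p = 0.00182, edgeR, and 0.0555 over 23016 genes), which came to -0.0517 with RLE scaling. At a mean of 131 TPM in Venus positive cells it came next to *cdh11* among the members.

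The tight junction members fell. *cldne* (81584), a claudin known from zebrafish epidermis, had 579 and 797 normalized read counts in double negative cells and 52.8 and 25.2 in Venus positive cells. Both Venus positive libraries were far below both double negative libraries, and the mean was 17.7-fold lower. The log2 fold change was -4.15 (standard error 0.66, adjusted p = 8.3e-05, edgeR). It was -4.77 without Venus positive library 3 and -3.70 without library 4. *oclnb* (494075), an occludin, had 224 and 96.1 normalized read counts in double negative cells and 33.9 and 16.5 in Venus positive cells. The double negative libraries differed 2.33-fold, and the groups did not overlap. Its log2 fold change was -2.68 (standard error 0.85, adjusted p = 0.00647, edgeR), and it was -1.93 with an adjusted p of 0.174 without double negative replicate 1 and -3.27 without Venus positive library 3. Over all alternatives tried, the adjusted p of *oclnb* ran from 6.3e-05 to 0.198.

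The plakophilins, both linkers of the desmosome, went in opposite directions, although *pkp3b* was close to no change with RLE and TMM scaling. *pkp1b* (797838) had 437 and 289 normalized read counts in double negative cells and 20.1 and 98.0 in Venus positive libraries 3 and 4. The Venus positive libraries were both lower but differed 4.87-fold from each other. The log2 fold change was -2.61 (standard error 0.78, adjusted p = 0.00477, edgeR; 0.145 over 23016 genes), and it was -1.89 without Venus positive library 3 and -4.17 without Venus positive library 4. *pkp3b* (100330353) had 283 and 240 normalized read counts in double negative cells and 861 and 875 in Venus positive cells. Its Venus positive libraries lay within 1.02-fold of each other, and the groups did not overlap. The log2 fold change was 1.73 (standard error 0.50, adjusted p = 0.00390, edgeR; 0.119 over 23016 genes), a 3.32-fold difference that did not exceed the median of the table and came to -0.144 under RLE.

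The ratio of one plakophilin to the other within a library does not depend on the scaling. For each read of *pkp3b* there were 1.54 and 1.204 reads of *pkp1b* in double negative cells and 0.0234 and 0.112 in Venus positive cells. Per length, *pkp1b* had 1.68 and 1.31 TPM per TPM of *pkp3b* in double negative cells and 0.0797 in the mean of Venus positive cells. Thus *pkp1b* was the more abundant of the pair in double negative cells and *pkp3b* in Venus positive cells. *pkp3b* made up 13.7% and 11.7% of the summed TPM of the 4 epithelial members in double negative cells and 83.8% in Venus positive cells.

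**Figure D3:**
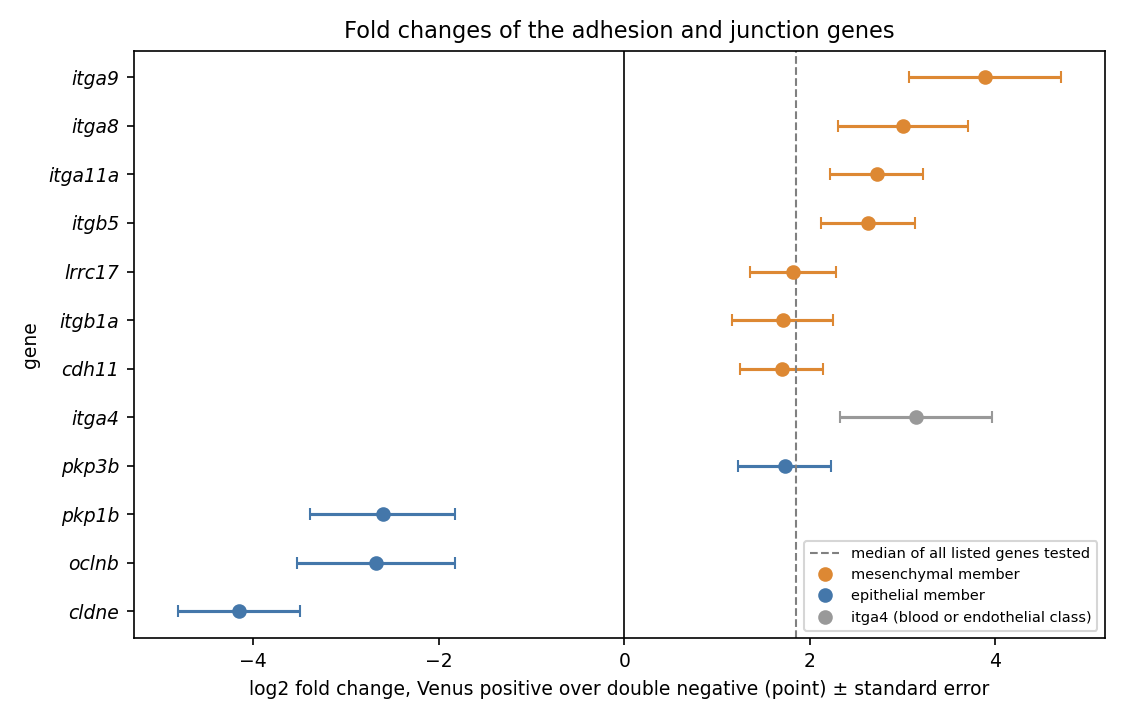
Log2 fold change (Venus positive over double negative, edgeR, point) with its standard error (bar) of 12 of the 13 genes, coloured by class. *gja8b* is not drawn because it had no reads in Venus positive cells. The dashed line is the median of all listed genes tested, 1.85, and *cdh11*, *itgb1a*, *lrrc17* and *pkp3b*, which lie next to it, change sign with RLE scaling over the listed genes.

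*gja8b* (114403), a gap junction connexin of lens fibre cells, had 74 and 32 reads in double negative cells and 0 in both Venus positive libraries. Of the listed genes, 7.94% had no reads in either Venus positive library. *gja8b* had 60.8 and 32.7 normalized read counts in double negative cells. Their mean was at least 14.7-fold higher than the mean of the floors of 3 counts per Venus positive library, 3.77 and 2.60 normalized read counts, and at least 10.3-fold higher without double negative replicate 1. This limit covers counting error only. Per length *gja8b* was low in double negative cells too, at 3.25 and 1.33 TPM.

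Set side by side per length, the 7 mesenchymal members summed to 140 and 91.1 TPM in double negative cells and to 455 TPM in Venus positive cells. *cldne*, *oclnb* and *pkp1b* summed to 68.3 and 53.2 TPM in double negative cells and to 6.37 TPM in Venus positive cells. The mesenchymal sum was 2.05 and 1.71 times the sum of these 3 epithelial genes in double negative cells and 71.4 times it in Venus positive cells. These 3 genes are the epithelial members that were lower, so part of this change follows from how they were picked. With *pkp3b* included, the epithelial members summed to 79.2 and 60.2 TPM in double negative cells and to 39.3 TPM in Venus positive cells.

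**Figure D4:**
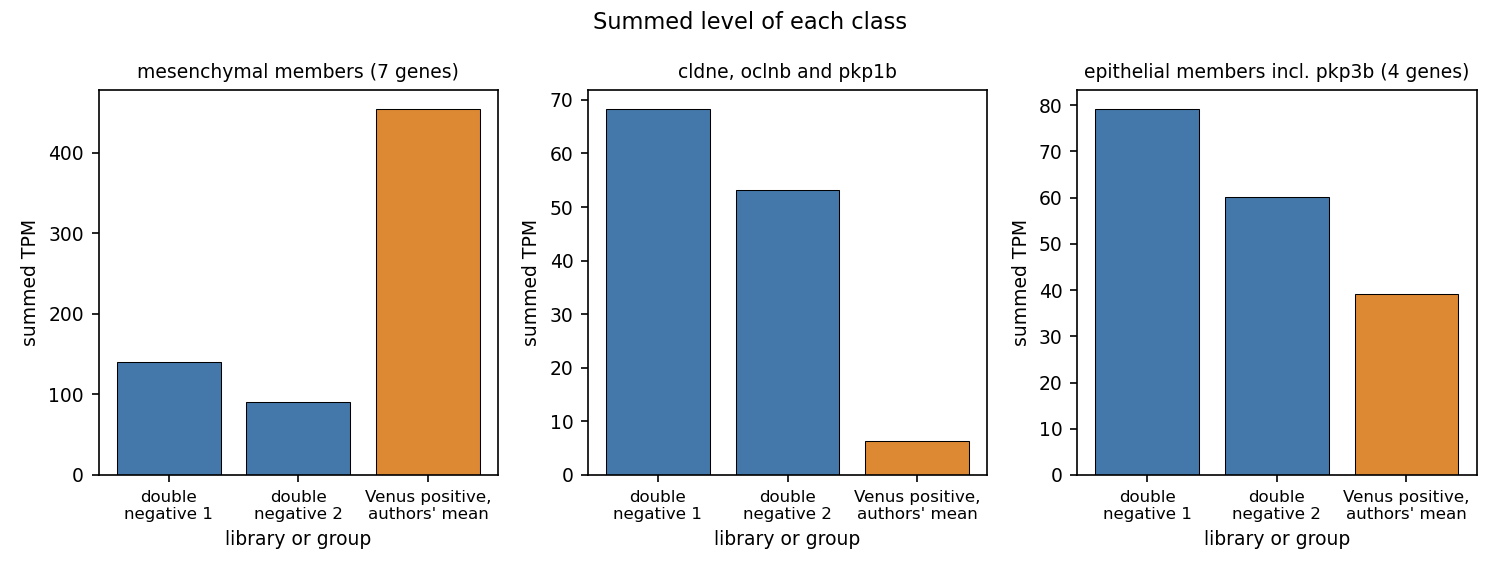
Summed TPM of the mesenchymal members (left), of *cldne*, *oclnb* and *pkp1b* (middle) and of all 4 epithelial members with *pkp3b* (right), with 1 bar for each double negative library (blue) and 1 for the authors' mean of the Venus positive libraries (orange), which has no error bar. The mesenchymal sum was 455 TPM in Venus positive cells and 140 and 91.1 TPM in double negative cells. With RLE scaling over the listed genes *cdh11*, *itgb1a*, *lrrc17* and *pkp3b* change sign.

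A further 4 junction genes stand in the table under automatic names and were found by their NCBI gene ID in RefSeq, an addition made after the data were seen. All 4 were lower in Venus positive cells. *cldn8.2* (550497) had 548 and 286 reads in double negative cells and 1 and 43 in Venus positive cells. *cldn23.1* (553515) had 311 and 223 against 0 and 4, and *cldn30* (678612) had 112 and 118 against 0 and 1. The Venus positive libraries were close to 0 for these claudins, except for library 4 in *cldn8.2*. The ratio of the summed reads, scaled by the size factors, was 16.8 for *cldn8.2* (95% exact interval 12.4 to 23.3), 118 for *cldn23.1* (46.0 to 436) and 204 for *cldn30* (36.3 to 8097), with intervals that cover counting error only. These ratios depend on Venus positive library 4, which held all or nearly all of the Venus positive reads. Without Venus positive library 3 they were 10.2 for *cldn8.2*, 70.1 for *cldn23.1* and 121 for *cldn30*. Without library 4 the ratio of *cldn8.2* was 302 (54.1 to 11952), and *cldn23.1* and *cldn30*, with 0 reads left, were at least 64.1-fold and 28.2-fold lower against the floor of library 3. *nectin4a* (560512), an adhesion molecule of adherens junctions, had 30 and 85 reads in double negative cells and 0 in both Venus positive libraries, at least 17.5-fold lower against the floor of 3 counts per library. The limit for *nectin4a* was 7.73-fold without double negative replicate 2 and 27.3-fold without replicate 1. With these 4 genes, 7 of 8 epithelial genes were lower and their median log2 fold change was -4.18, or -4.14 with *nectin4a* at its bound. Of all listed genes tested, 35.8% were lower. The added genes had passed the authors' test before, so this count adds no support for the split of the classes. The 7 lower genes summed to 125 and 89.4 TPM in double negative cells and to 8.09 TPM in Venus positive cells. This sum holds only genes picked for being lower. It leaves out *pkp3b*, with 10.9 and 7.01 TPM in double negative cells and 32.9 TPM in Venus positive cells.

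The table holds few of the genes in these families, as it holds few of all genes, 756 beside the 23016 behind the authors' adjustment. Few is thus not read as a trait of these families. In RefSeq (annotation of GRCz12tu, used for names only) there are 331 protein-coding genes whose symbols fit the pattern, among them 20 integrin alpha, 15 integrin beta, 28 cadherin, 63 protocadherin, 48 claudin and 37 connexin genes. Of these families the members include 4, 2, 1, 0, 1 and 1 genes, and 3 claudins were added by gene ID. Set against the 331 genes, 13 genes are members, 4 were added by gene ID and 2 were left out by the rule. None of the 12 genes for desmoplakin, desmocollins, desmogleins and plakoglobin, or of the 5 genes for the ZO scaffold proteins of tight junctions, is a member. The other genes were not analysed here, which does not show that their levels were equal.

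Of 39 other genes of epithelial junctions and epithelial identity, 5 were in the table, 4 of them lower and 1 higher. Of all listed genes tested, 35.8% were lower and 64.2% higher. The 5 had all passed the authors' test before, so this count is no sign of enrichment. Envoplakin and periplakin, which tie desmosomes of the outer epidermis to keratin, were lower: *evplb* had 311 and 418 normalized read counts in double negative cells and 2.51 and 36.4 in Venus positive cells, and *ppl* had 831 and 912 against 111 and 103. The groups did not overlap for either gene, and their log2 fold changes were -4.18 and -3.03. That of *evplb* was -3.32 without Venus positive library 3 and -7.11 without library 4. The second envoplakin gene *evpla* (-2.32) and the protease inhibitor gene *spint2* (-2.23) were lower as well, and for *evpla* the adjusted p in edgeR was 0.146 with double negative replicate 2 left out, where the log2 fold change was -1.61, with a range of 1.8e-05 to 0.146 over all alternatives tried. Without Venus positive library 4 the log2 fold change of *spint2* was -3.10. The gene that was higher was *pleca*, for the linker protein plectin, with a log2 fold change of 2.13. It came to 0.23 with RLE and 0.37 with TMM scaling over the listed genes, and its Venus positive libraries differed 2.61-fold.

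Of 48 genes of the matrix, of focal adhesions and of other contact between cell and matrix, which include integrin ligands, the collagen receptor *ddr2a* and the membrane protease *fap*, 13 were in the table and all 13 were higher (12 of 13 with RLE or TMM scaling, where *zyx* turned), with a median log2 fold change of 2.24. The thrombospondin gene *thbs3b* had 348 and 386 normalized read counts in double negative cells and 6422 and 2710 in Venus positive cells. The log2 fold change was 3.63 (standard error 0.53), or 2.88 without Venus positive library 3. *thbs1a*, another thrombospondin, rose by 3.15 and the collagen receptor gene *ddr2a* by 2.80 (2.16 without Venus positive library 3), but *ddr2a* came to 0.89 (adjusted p = 0.297) with RLE and 1.00 (adjusted p = 0.223) with TMM scaling in edgeR, against a lowest adjusted p of 1.2e-05 over all alternatives. The tenascin gene *tnw*, whose mammalian relatives bind integrins that hold the alpha-8 or alpha-9 subunit, had 4993 and 5124 normalized read counts in double negative cells and 35280 and 33682 in Venus positive cells. It was high in all 4 libraries and rose by 2.77 on the log2 scale (standard error 0.46, adjusted p = 1.2e-04, edgeR). The value for *tnw* was 0.90 (adjusted p = 0.123) with RLE and 1.00 (adjusted p = 0.0746) with TMM scaling in edgeR, and over all alternatives its adjusted p ran from 9.3e-10 to 0.123. When counted as part of 23016 genes, 9 of the 13 passed, beside 55.4% of all listed genes (29.7% as higher). The 13 had all passed the authors' test before, so this count is no sign of enrichment.

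Markers of other cell types moved with the same sort, and their part in the values above was not tested. Beside the counts below, 64.2% of the listed genes tested were higher and 35.8% lower. All had passed the authors' test before, so these counts are no sign of enrichment. Of 25 genes of epidermis and other epithelia, one of them *cldne*, 14 were in the table and all 14 were lower, with summed normalized read counts of 396070 and 326164 in double negative cells and 30427 and 59095 in Venus positive cells. None of the 14 was at 0 in both libraries of a group. Epidermal reads were thus lower but not absent in Venus positive cells, and library 4 had the higher sum. Of the lower epithelial genes, *pkp1b*, *cldn8.2*, *evplb*, *evpla* and *spint2* were also higher in library 4. The few Venus positive reads of *cldn23.1* and *cldn30* (4 and 1) were all in library 4. *cldne* (52.8 and 25.2 normalized read counts in libraries 3 and 4), *oclnb* (33.9 and 16.5) and, slightly, *ppl* (111 and 103) were higher in library 3. *pkp3b*, which was not among the lower genes, was alike in both (861 and 875). Of 21 erythrocyte genes 16 were in the table and all 16 were lower, at 218984 and 397746 against 5685 and 4004, and *hbae5* and *gata1a* were at 0 in both Venus positive libraries. Of 12 fibroblast genes 7 were in the table and all 7 were higher, at 7081 and 9741 against 45059 and 33651. None of 18 endothelial and 14 neuronal markers was in the table, and both groups had been sorted as negative for the endothelial mCherry. Of 22 skeletal muscle markers 3 were higher and 1 lower (2 and 2 with RLE scaling, where *actc1a* turned), and of 16 markers of neural crest and pigment cells 4 were lower.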

How the data were processed

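The members, classes and lists were chosen with earlier results of these data known. The authors filtered reads of 4 bulk Smart-seq2 libraries with SOAPnuke and mapped them to GRCz11 with HISAT2 2.0.4. Per the labels and the study's methods, Bowtie2 2.4.4 aligned them to the gene set, RSEM 1.2.28 estimated levels and DESeq2 compared the groups. The deposited table holds expected counts from RSEM, normalized read counts (a signal the authors made by dividing the count, raised to a whole number, by a size factor) and TPM values of the authors. P-values and Q values deposited by the authors were read only to count that 756 of 756 Q values lie under 0.05 and that 23016 genes stand behind the adjustment. The authors' fold changes, 18 columns comparing single libraries, 7 group averages and 8 columns of values per library were not used. Venus positive columns carry the numbers 3 and 4 where the labels have 1 and 2, so only 1 measure, the normalized read count, was taken for them, without a replicate number, and their TPM is the authors' mean of the group.

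In each library 100% of the normalized counts above 0 were whole multiples (within 0.01 of a read) of the smallest one, which gave back the whole reads and size factors of 1.22 and 0.98 (double negative) and 0.80 and 1.15 (Venus positive). For the double negative libraries these reads equal the raised expected counts in 756 of 756 genes. The reads were tested with edgeR 4.0.16 (R 4.3.3), quasi-likelihood, by group, two-sided, at a Benjamini-Hochberg adjusted p of 0.05, which called 754 of 754 genes. The biological coefficient of variation, 0.417, comes from genes selected for a difference, so p-values can be too small. The test was also run on simulated counts drawn with this same coefficient, so that run cannot show whether the p-values are too small. RSEM splits by estimate the reads that near-identical gene copies share. Alternatives were RLE and TMM scaling, no filter, DESeq2 1.42.0, adjustment over 23016 genes, rounding of the double negative counts to the nearest whole number, each library left out, and, chosen after seeing the data, genes matched by RefSeq symbol (737 of 756 gene IDs were found). Every member is named. Values per library are given for epithelial and mesenchymal members and for others with an absolute log2 fold change above 3, and the 4 partners per list with the largest change are named. Exceptions, chosen after their values were seen, are *pleca*, *apln*, *hbae5*, *gata1a*, *zyx*, *fap*, *actc1a* and the genes under "Other observations".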

Additional observations from a re-analysis of the deposited data

How the results depend on the processing

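No paired analysis was possible because the Venus positive columns carry no replicate number of the labels. All 13 members kept their call and direction with no filter on low counts, with DESeq2 and with rounding of the double negative counts to the nearest whole number, which leaves the Venus positive reads as they are. Under these alternatives all listed genes tested were called too, 756 with no filter and 754 with DESeq2 and with rounding. The authors had selected the table with DESeq2, so the kept calls add no support. Scaling over the listed genes centres a selected list near no change. With RLE and TMM scaling, 342 and 354 of all listed genes were called, 72 and 84 of them as higher. Among the members 5 were called under both, 1 of them as higher, and the mesenchymal calls fell to 1 (1 higher) and the higher epithelial calls to 0. The medians were -4.51 and -4.44 for the epithelial and 0.70 and 0.80 for the mesenchymal members. *pkp3b* came to -0.144 and -0.0559, *cdh11* to -0.20 and -0.10 and *itgb1a* to -0.184 and -0.0617, and *lrrc17* to -0.0517 with RLE. Adjusted over 23016 genes, 418 listed genes were called (224 higher), 6 members (4 higher, 2 lower), 1 epithelial member (0 higher, 1 lower) and 4 mesenchymal members (4 higher), a loss that follows from counting more tests. With each library left out in turn, the epithelial median ran from -3.02 to -2.11 and the mesenchymal median from 2.17 to 2.79. With the genes matched by RefSeq symbol, 8 members were lower, 8 epithelial genes were called, 7 of them as lower, and their median was -4.18. Few reads limit precision for *gja8b* in Venus positive cells (0 reads, standard error 1.62). They also limit it for *itga4*, *itga9* and *itga8* in double negative cells (18 to 58 reads). The same holds for *cldne*, *oclnb* and *pkp1b* in Venus positive cells (16 to 113 reads).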

Other observations

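Some adhesion genes of the table carry names that the family pattern does not match, and were picked for their function after the table was read. *vcam1b*, an adhesion molecule that integrins with the alpha-4 or alpha-9 subunit bind in mammals, had 444 and 465 normalized read counts in double negative cells and 2300.2 and 1523 in Venus positive cells, with a log2 fold change of 2.07 and a standard error of 0.47 (0.17 with RLE and 0.28 with TMM scaling over the listed genes). *dchs1a* and *fat4*, large cadherins that bind each other across neighbouring cells in mammals, rose by 2.02 and 1.62 on the log2 scale, from 98.6 and 151 to 577 and 434 normalized read counts and from 217 and 309 to 836 and 777, but with RLE and TMM scaling *dchs1a* came to 0.16 and 0.26 and *fat4* to -0.23 and -0.13. Adjusted over 23016 genes, the p of *dchs1a* in edgeR was 0.145 and that of *fat4* 0.182. *hmcn1* and *svep1*, both large extracellular adhesion proteins, rose by 3.43 and 3.46. *svep1* had 53.4 and 76.7 normalized read counts in double negative cells and 840 and 589 in Venus positive cells. Not all genes named for tight junctions were lower: *cgnl1*, for the junction protein paracingulin, had 351 and 600.2 normalized read counts in double negative cells and 2313 and 1348 in Venus positive cells, with a log2 fold change of 1.94 and a standard error of 0.50. The tetraspan genes *marveld1* and *emp2* had log2 fold changes of 2.15 and 2.09, and of 0.31 and 0.24 with RLE. With the claudin *cldn11a*, outside the member rule, at 479 and 800 normalized read counts against 2795 and 2869, the tight junction genes of the table went in both directions under the authors' scaling. Under RLE, *cgnl1* at 0.0678 and *cldn11a* at 0.322 were closer to no change than their standard errors under the authors' scaling, 0.50 and 0.47.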
